A study of Arabidopsis thaliana with 6 samples.

Results

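BBX1 to BBX6 are the 6 Arabidopsis B-box genes whose proteins carry 2 B-boxes near the amino end and a CCT domain near the carboxyl end. They are CONSTANS (CO, here BBX1, AT5G15840) and CONSTANS-LIKE 1 to 5: COL1 (BBX2, AT5G15850), COL2 (BBX3, AT3G02380), COL3 (BBX4, AT2G24790), COL4 (BBX5, AT5G24930) and COL5 (BBX6, AT5G57660). The members were chosen by locus identifier from this published structural grouping and not by a cut on their values. Earlier results of these data were known when they were chosen. All 6 were found among the 33602 loci listed in each deposited table. The set includes BBX4, the gene that names the mutant line. Whole seedlings of Arabidopsis thaliana, accession Col, were compared between wild-type plants (WT) and plants labelled bbx4-1, both grown for 4 days under continuous red light at 22 °C, with 3 biological replicates of each. The sources used here do not say what the bbx4-1 lesion is or where it lies. The authors combined the replicates into 1 FPKM value per locus and genotype (fragment numbers normalised to transcript length and sequencing depth), so every value is printed as the authors' combined value, with no SD, no test and no p-value.

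B-box proteins are plant zinc finger proteins in which the B-boxes mediate contacts with other proteins and the CCT domain contacts DNA together with NF-Y subunits. CO, the founding member, connects day length to flowering: its transcript follows the circadian clock, its protein is stabilised by light and removed by the COP1-SPA ubiquitin ligase in darkness, and it activates the florigen gene FT in leaves. BBX4 is known as a promoter of light-dependent seedling development in red light that interacts with COP1 and with the phytochrome pathway. In whole seedlings, fewer cells with a transcript and less transcript per cell cannot be told apart.

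BBX4 itself was far higher in the column labelled bbx4-1, and the other 5 genes were slightly lower. In the column labelled bbx4-1, BBX4 reached 1095.7 FPKM against 88.97 FPKM in WT, whereas BBX1, BBX2, BBX3, BBX5 and BBX6 all had lower FPKM there than in WT, with changes between −16.7% and −4.08%. Only BBX4 passed 2-fold, a size reached by 0.148% of the 18931 loci whose mean FPKM was 1 or more (0.106% upwards and 0.0423% downwards). Because the named gene was higher, not lower, in the column labelled bbx4-1, all directions refer to that label and not to a loss of BBX4 transcript. The column itself is headed BBX4, without an allele, and only the sample descriptions assign it to bbx4-1. Whether its seedlings carried a loss of BBX4 function, or another line such as one with raised BBX4 expression, cannot be told from the files, and every ratio below holds for that column whichever it is.

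The members were first checked against the structure that defines them, using the RefSeq annotation of the TAIR10.1 assembly. In the coding sequence of the main model of all 6 genes, a pattern search found 2 B-boxes encoded in the first exon and 1 CCT domain encoded in the second exon. All 6 main models also end with a valine-proline pair near the carboxyl end, a feature that in related light-signalling proteins takes part in contacts with COP1. The first B-box stretch of BBX6 measured 102 bp and all the others 114 bp. BBX1 and BBX4 each have a second annotated model, with 1 coding exon, whose reading frame ends before the CCT domain, and the deposited tables give 1 value for both models of a gene. The coding sequences encode between 294 amino acids (BBX4) and 373 (BBX1).

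The coding DNA of the CCT domain is shown because it has the same length in all 6 genes and shows how far BBX4 reads can be told from those of its relatives. Capitals mark bases that differ from BBX4, and each sequence of 126 bases is read from TAIR10.1 in the direction of the gene.
BBX1: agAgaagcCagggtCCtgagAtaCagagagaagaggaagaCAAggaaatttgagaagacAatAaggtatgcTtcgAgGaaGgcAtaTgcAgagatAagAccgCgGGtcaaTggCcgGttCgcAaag
BBX2: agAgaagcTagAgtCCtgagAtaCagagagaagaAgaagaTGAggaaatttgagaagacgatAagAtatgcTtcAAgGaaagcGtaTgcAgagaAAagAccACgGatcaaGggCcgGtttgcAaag
BBX3: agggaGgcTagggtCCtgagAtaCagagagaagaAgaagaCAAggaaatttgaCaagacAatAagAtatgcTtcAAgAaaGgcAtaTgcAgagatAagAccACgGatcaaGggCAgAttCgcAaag
BBX4: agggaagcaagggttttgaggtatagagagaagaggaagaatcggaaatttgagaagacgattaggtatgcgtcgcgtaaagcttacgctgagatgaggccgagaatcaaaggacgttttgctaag
BBX5: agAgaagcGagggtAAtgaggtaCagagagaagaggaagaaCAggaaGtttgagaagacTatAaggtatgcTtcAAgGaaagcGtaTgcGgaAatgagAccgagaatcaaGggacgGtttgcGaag
BBX6: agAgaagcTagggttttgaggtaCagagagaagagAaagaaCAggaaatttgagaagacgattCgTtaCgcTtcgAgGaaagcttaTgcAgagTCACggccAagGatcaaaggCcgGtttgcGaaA
These stretches lie at chr5:5171424-5171549 (BBX1, minus strand), chr5:5176384-5176509 (BBX2, minus), chr3:487525-487650 (BBX3, minus), chr2:10567746-10567871 (BBX4, plus), chr5:8590743-8590868 (BBX5, plus) and chr5:23356514-23356639 (BBX6, plus). BBX5 differed from BBX4 at 22 bases, BBX6 at 24, BBX1 at 28, BBX2 at 30 and BBX3 at 33. The longest run identical to BBX4 in this domain was 20 bases, in BBX6.

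Across the whole coding sequence, the 3 most alike pairs were those among BBX1, BBX2 and BBX3. They shared 78.8% to 80.1% of aligned bases. BBX4 shared 73.4% with BBX5 and 70.2% with BBX6, and between 62.7% and 64.5% with BBX1, BBX2 and BBX3. BBX5 and BBX6 shared 66.0%, no more than BBX6 shared with BBX2 (66.2%) or BBX3 (66.0%). The single longest identical exonic run between BBX4 and another member was 35 bases, in the second B-box of BBX5. It is shown in capitals within the 114 bases that encode this B-box, at chr2:10567109-10567222 in BBX4 and chr5:8589601-8589714 in BBX5, both on the plus strand.
BBX4: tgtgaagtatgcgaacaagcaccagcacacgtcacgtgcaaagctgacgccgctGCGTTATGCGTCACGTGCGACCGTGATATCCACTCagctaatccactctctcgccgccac
BBX5: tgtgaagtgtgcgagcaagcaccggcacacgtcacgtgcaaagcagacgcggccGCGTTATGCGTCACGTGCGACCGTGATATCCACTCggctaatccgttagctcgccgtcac
Of 1235 distinct exonic runs of 30 bases in BBX4, 6 occurred elsewhere in the genome, and of 1031 in BBX5 also 6. BBX1 had 4 of 2895, and BBX2, BBX3 and BBX6 had none of 1640, 2198 and 1506. Fragments of these genes are therefore nearly all distinguishable by sequence from other places in the genome. This does not extend to loci that overlap BBX1, BBX2 and BBX3 on the opposite strand. The sources used here do not say how the authors treated fragments with several matches.

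**Figure D1:**
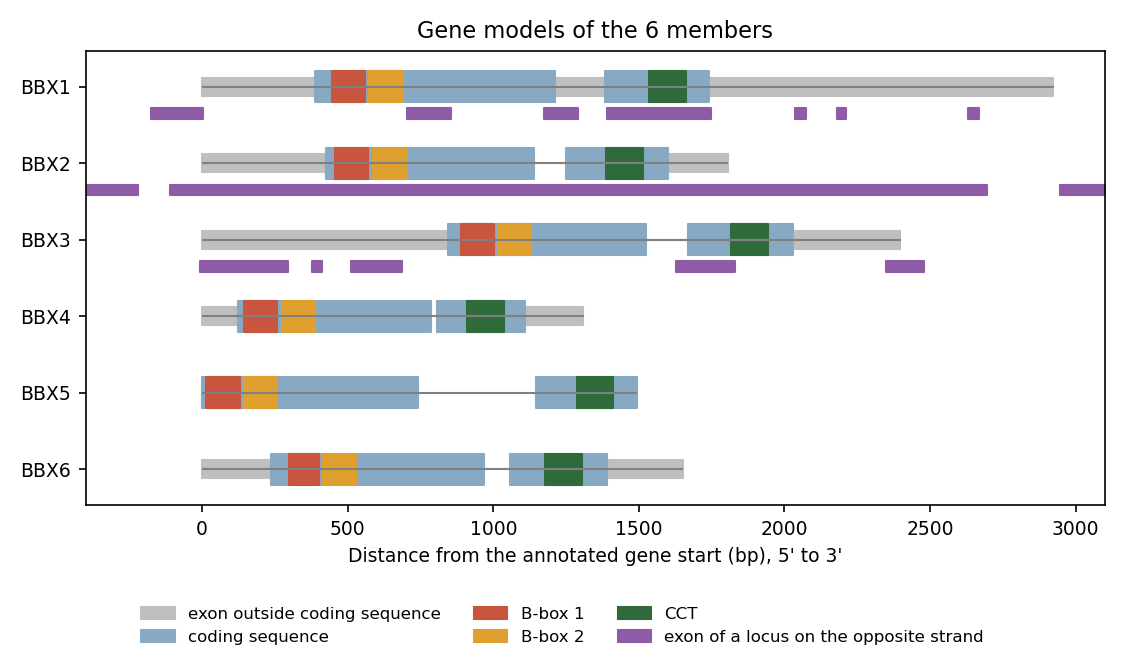
Gene models of BBX1 to BBX6, drawn to scale in base pairs from the annotated gene start, with all models of a gene merged. Thin bars are exons outside coding sequence, thick bars coding sequence with the B-boxes and the CCT domain coloured, and purple bars are exons of loci on the opposite strand, which lie across BBX1, BBX2 and BBX3.

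BBX5 was the most abundant of the 6 transcripts in WT, at 128.94 FPKM, and encodes COL4, described as a flowering repressor and a factor in salt and osmotic stress. BBX4 followed at 88.97 FPKM and BBX3 (COL2) at 51.44 FPKM. BBX6 (COL5), whose overexpression is known to induce flowering in short days, stood at 35.99 FPKM, BBX2 (COL1) at 15.21 FPKM and BBX1 (CO) at 3.65 FPKM. Each step in this order was at least 1.43-fold in FPKM, and without replicate columns its spread over seedlings is unknown. The annotation gives BBX5 no untranslated regions, so its exon length equals its coding length of 1089 bp, and its FPKM may not be on the same footing as that of the other members if the authors used the same model. The same caution holds for BBX1, whose merged exons of 2924 bp span its whole gene.

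In the column labelled bbx4-1 the order changed at 1 place. BBX4 moved to the top at 1095.7 FPKM, 9.19-fold above BBX5 at 119.29 FPKM. Below it stood BBX3 at 42.91 FPKM, BBX6 at 33.11 FPKM, BBX2 at 14.59 FPKM and BBX1 at 3.04 FPKM, in the order of WT. The step from BBX3 to BBX6 narrowed from 1.43-fold to 1.296-fold.

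**Figure D2:**
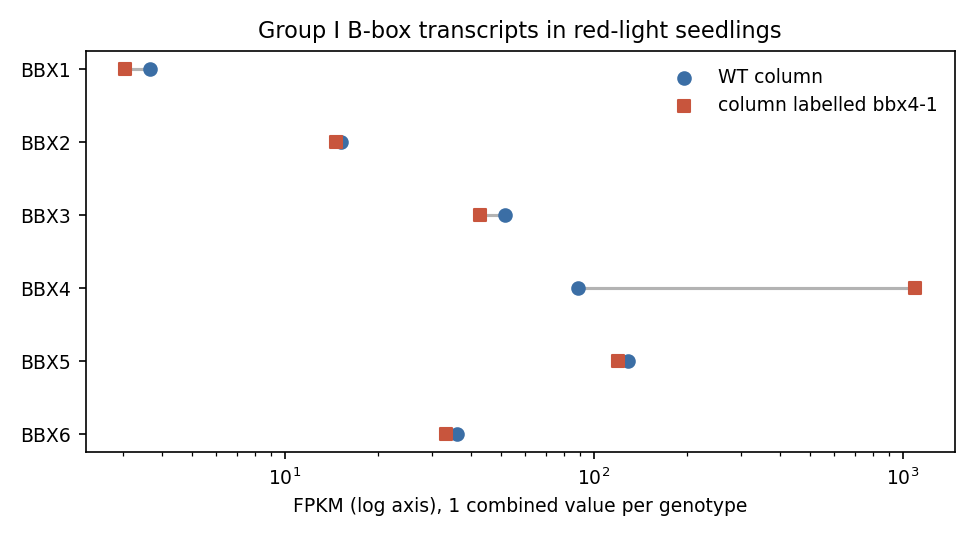
FPKM of the 6 members (log axis) in the WT column (circles) and the column labelled bbx4-1 (squares), 1 combined value per genotype with no error available. BBX4 moves from 88.97 to 1095.7 FPKM and passes BBX5, while the other 5 pairs of points nearly coincide, each with the square to the left.

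As a pool, the 6 genes summed to 324.2 FPKM in WT and 1308.64 FPKM in the column labelled bbx4-1, 4.04 times as much. BBX4 supplied 27.4% of that sum in WT and 83.7% in the other column. BBX5 went from 39.8% to 9.12% and BBX3 from 15.9% to 3.28%. Without BBX4, the sum of the remaining 5 was 235.23 FPKM in WT and 212.94 FPKM in the column labelled bbx4-1, a change of −9.48%. Almost the whole shift in composition was therefore the BBX4 value itself.

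Differences are given below as log2(FPKM + 1) in the column labelled bbx4-1 minus that in the WT column, with a 95% counting interval. The interval comes from an approximate number of fragments per gene and covers counting error only, not the variation between seedlings. BBX4 was 3.61 higher on this scale (interval 3.57 to 3.65), from about 5531 fragments in WT and 70590 in the other column. Its FPKM ratio was 12.3 (exact interval 11.98 to 12.66), the highest of all 18931 loci on the log2 scale, with LEA3, a late embryogenesis abundant protein gene, next at 2.51. BBX4 moved from rank 1181 to rank 70 among 33323 nuclear loci. The neighbours of BBX4 were silent or nearly so: AT2G24780, 653 bp away, was listed at 0 in both columns and AT2G24791, 101 bp away, at 0.06 FPKM in both.

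BBX3 had the lowest log2 ratio of the 6. Its value of −0.26 (interval −0.31 to −0.20) corresponds to 51.44 FPKM in WT and 42.91 FPKM in the other column, so that the FPKM ratio was 0.834 (exact interval 0.802 to 0.867). Of all loci tested, 4.35% lay lower. Among 3578 loci with a mean FPKM within 2-fold of that of BBX3, 8.02% had a log2 ratio at least as large in size. BBX3 thus lay toward the lower edge of the distribution but was not isolated from it.

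BBX1 was lower by the same proportion from far fewer fragments. It stood at 3.65 FPKM in WT and 3.04 FPKM in the other column, so that the FPKM ratio was 0.833 (exact interval 0.732 to 0.948) and the log2 ratio −0.20 (interval −0.34 to −0.06). Among loci of similar level, 20.7% had a log2 ratio at least as large in size. The interval rests on the annotated exon length of 2924 bp. With the coding length in its place it ran from −0.42 to 0.018 and took in 0, so the BBX1 difference is within counting error under that choice.

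BBX5 and BBX6 were lower by similar small amounts. BBX5 had a log2 ratio of −0.11 (interval −0.16 to −0.06), from 128.94 to 119.29 FPKM, and BBX6 one of −0.12 (interval −0.19 to −0.04), from 35.99 to 33.11 FPKM. Among loci of similar level, 33.1% for BBX5 and 31.7% for BBX6 had a log2 ratio at least as large in size. BBX2 had a log2 ratio of −0.06 (interval −0.16 to 0.05), from 15.21 to 14.59 FPKM. For BBX2 the difference was not detectable at this depth.

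Counted together, 5 of the 6 members had a log2 ratio below 0, against 40.4% of all loci tested. Beyond the counting interval, BBX1, BBX3, BBX5 and BBX6 were lower and BBX4 was higher. Such differences were common: 36.9% of all loci with an annotated length differed by this margin, 24.1% upwards and 12.8% downwards. At the smaller threshold of 1.2-fold, BBX4 alone was past it on the log2(FPKM + 1) scale, against 5.14% of all loci upwards and 4.1% downwards. BBX1, whose plain FPKM was 1.201-fold lower, lay inside it because of the pseudocount. BBX3 lay just inside that threshold and passed it downwards when the column was rescaled to a median ratio of 1 (−0.30) or when nuclear loci alone were scaled to a common sum (−0.28). The median log2 ratio was −0.12 over the 5 members other than BBX4 and 0.028 over all loci. With 1 combined column per genotype, whether these small differences exceed the variation between seedlings is unknown.

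**Figure D3:**
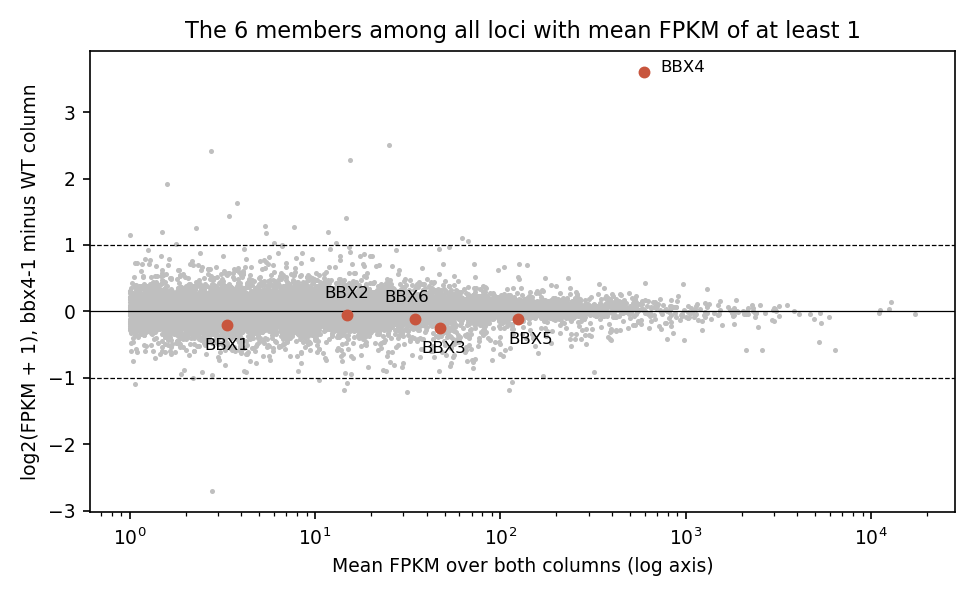
log2 ratio against mean FPKM (log axis) for the 18931 loci averaging 1 FPKM or more (grey) and the 6 members (red), with dashed lines at 2-fold. BBX4 at 3.61 lies above every other locus, and the other 5 members lie between −0.26 and −0.06, inside the grey cloud.

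Loci on the opposite strand overlapped BBX1, BBX2 and BBX3, and the sources used here do not say whether the authors' counting used strand. Without strand, the fragments of a gene and of an antisense partner cannot be told apart. The long non-coding RNA AT5G15845 covers all exons of BBX2 and touches BBX1 over 5 bp. It was listed at 0.36 FPKM in WT and 0.26 FPKM in the column labelled bbx4-1, far under BBX2. AT3G02390 shares 506 bp of exon with BBX3 and stood at 2.18 and 1.67 FPKM, and AT3G02370 shares 212 bp and stood at 3.16 and 2.79 FPKM. All 3 overlapping loci had lower values in the column labelled bbx4-1, with log2 ratios of −0.11, −0.25 and −0.13 and intervals that took in 0. Their part in the values of BBX2 and BBX3 was not tested. AT5G15843, which is annotated across BBX1, is not listed in the tables.

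BBX1 and BBX2 are tandem neighbours on chromosome 5, on the same strand and 3005 bp apart. By FPKM, BBX2 was 4.17 times as abundant as BBX1 in WT and 4.80 times in the column labelled bbx4-1. This step depends on the lengths the authors used, which are not given. With annotated exon lengths of 2924 bp for BBX1 and 1698 bp for BBX2, the WT values correspond to about 513 and 1242 fragments. The loci that flank BBX3 and have no exon in common with it went the other way from BBX3. AT3G02360 had a log2 ratio of 0.18 (64.18 to 72.91 FPKM) and AT3G02400, which lies 202 bp from BBX3 on the opposite strand, one of 0.21 (3.91 to 4.66 FPKM). The other flanking loci were low: AT5G15853 beside BBX2 went from 0.52 to 0.19 FPKM, AT5G24940 beside BBX5 from 0.08 to 0.02 FPKM and GDU5, on the other side of BBX5, from 2.51 to 2.65 FPKM. MIR865 beside BBX1 was listed at 0 in both columns, and the neighbours of BBX6 are not listed in the tables.

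The promoter of BBX4 is shown because its transcript differed most. The 250 bases before the annotated start, chr2:10566586-10566835 on the plus strand of TAIR10.1, hold a single match among the 6-letter and 8-letter motifs searched, printed in capitals.
BBX4: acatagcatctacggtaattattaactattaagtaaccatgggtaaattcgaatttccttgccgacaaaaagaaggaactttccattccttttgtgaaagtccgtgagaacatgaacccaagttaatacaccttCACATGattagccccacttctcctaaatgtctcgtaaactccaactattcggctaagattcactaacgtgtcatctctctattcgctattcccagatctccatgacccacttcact
The motifs were searched on both strands in the same window of 27443 nuclear protein-coding genes. They were the G-box CACGTG, bound by bZIP and bHLH factors, and CACATG, an E-box variant bound by phytochrome-interacting factors (PIFs). The others were the evening element AAATATCT of clock-regulated genes, the CCA1-binding site AAAAATCT, CCACA, the core of the element that CO binds, and CCAAT, the NF-Y site. The match in BBX4 is CACATG, 116 bases before the start, a motif present in 11.1% of all windows. BBX4 had no match to any of the others.

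The motif content of the other members' windows differed from that of BBX4. BBX3 held 1 evening element, 188 bases before the start (in 4.79% of all windows), and 1 CCAAT. BBX5 held 1 G-box (6.49% of all windows) 169 bases before its annotated start, and CACATG at 2 positions, 124 and 98 bases before it. BBX5 also held CCACA at 2 positions (28.4% of all windows), 1 of them overlapping a CACATG match, and CCAAT at 1 (46.0%). The CCA1-binding site (6.69% of all windows) was in none of the 6, and BBX1, BBX2 and BBX6 held none of the motifs. The evening element of BBX3 and the G-box of BBX5 are printed with the motif in capitals, from chr3:489637-489666 on the minus strand and chr5:8589276-8589305 on the plus strand.
BBX3 evening element: ataagttaccaAAATATCTtcttgttacta
BBX5 G-box: ctaagattttacCACGTGtcaacttttcat
A match is a description of the letters and not evidence of binding, and 5 and 6 letters recur often. The window of BBX5 ends at its start codon and not at a mapped transcript start.

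Within the B-box family of 32 genes, 31 were matched to the annotation by name and 27 of these averaged 1 FPKM or more over both columns. BBX9, BBX23 and BBX26 were listed at 0 in both columns, and BBX10 at 0.04 and 0.09 FPKM. Group I contained both the highest value of the family and a run of values under 0. The 4 measured genes of group II (BBX7 to BBX13), which like group I have 2 B-boxes and a CCT domain, had a median log2 ratio of 0.10, with BBX8 at 0.21 and BBX7 at −0.15. Group III (BBX14 to BBX17), with 1 B-box and a CCT domain, had a median of 0.03 over 4 genes. BBX14, at −0.33, was its lowest and only member past 1.2-fold, and BBX17 its highest at 0.08. Group IV (BBX18 to BBX25), with 2 B-boxes and no CCT domain, had a median of 0.16 over 7 genes. It ran from BBX20 at −0.34 to BBX25 at 0.38, the 2 past 1.2-fold on the log2(FPKM + 1) scale. BBX19, whose plain FPKM was 1.218-fold higher, lay inside that threshold because of the pseudocount. Over all loci tested, 9.24% were past 1.2-fold in either direction.

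Group V, the genes with 1 B-box and no CCT domain, contrasted most with group I. Of its 6 measured genes, 5 were past 1.2-fold upwards, against 5.14% of all loci tested. The median of the 6 was 0.85, and that of group I −0.11. BBX30 (5.69 to 11.29 FPKM, log2 ratio 0.88) and BBX31 (7.89 to 16.11 FPKM, 0.94) encode small proteins known to bind CO and to recruit a TOPLESS co-repressor to it. BBX32 (12.25 to 22.52 FPKM, 0.83) encodes a protein known to interact with BBX4. BBX29 had the highest ratio of the group at 1.63 (1.34 to 6.25 FPKM), BBX28 was at 0.52 and BBX27 the lowest at −0.19. The difference between the groups was not tested, since each gene has 1 value per genotype.

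**Figure D4:**
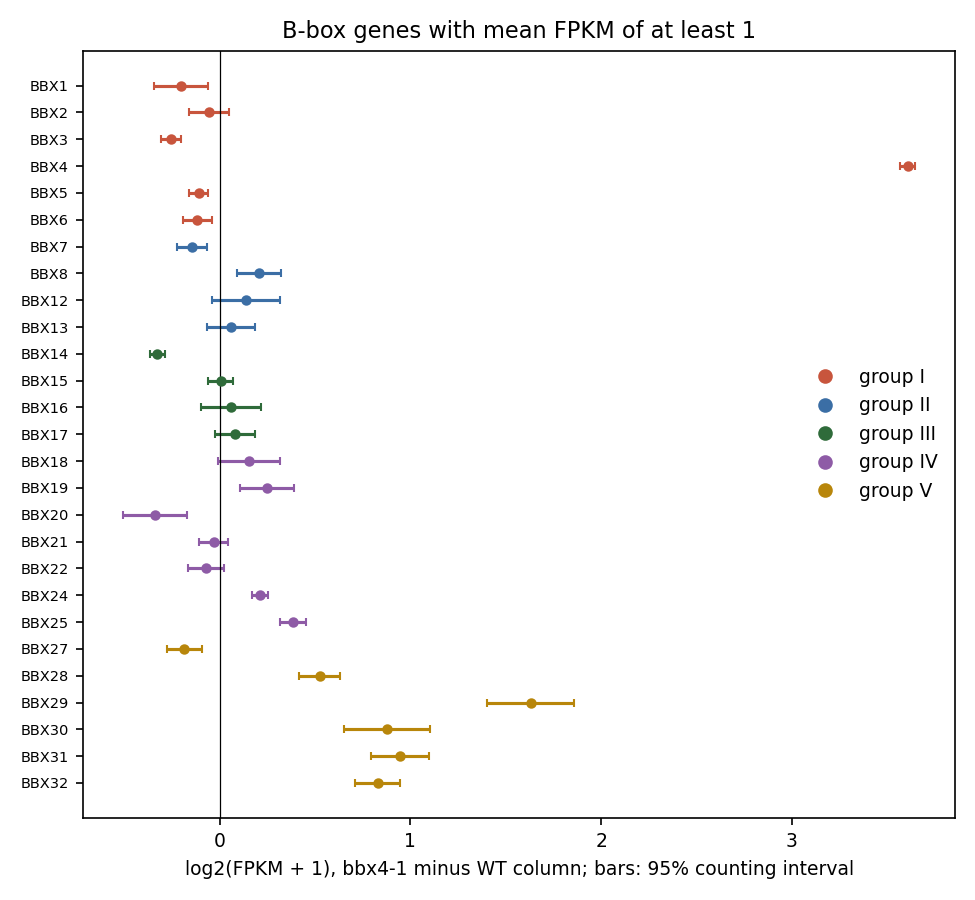
log2 ratio of the 27 B-box genes with a mean FPKM of at least 1, coloured by structural group, with 95% counting intervals that leave out variation between seedlings. In group I, BBX4 stands at 3.61 and the others between −0.26 and −0.06, while 5 of 6 genes of group V lie above 0.5.

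The genes known to set CO transcription were mixed. Of 11 measured regulators, 3 were past 1.2-fold, all higher in the column labelled bbx4-1, against 5.14% of all loci tested upwards. The median log2 ratio of the 11 was 0.03. GI, which with FKF1 removes the CDF repressors of CO in the afternoon, went from 3.67 to 7.0 FPKM (0.78), and FKF1 from 2.97 to 3.22 FPKM (0.09). CDF1 (8.85 to 12.36 FPKM, 0.44) and CDF3 (11.04 to 14.43 FPKM, 0.36), which repress CO, were also higher. The lowest was FBH3, which encodes an activator of CO, at −0.14. Higher values were thus found both for GI, which favours CO transcription, and for repressors of it.

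BBX1, BBX2 and BBX3 are known as clock-controlled transcripts, and clock genes differed between the columns too. Of 11 clock genes, 3 were past 1.2-fold upwards and 1 downwards, against 5.14% and 4.1% of all loci tested. PRR3, whose plain FPKM was 1.202-fold higher, lay inside the threshold because of the pseudocount. The median of the 11 was 0.16. PRR9 went from 1.39 to 5.49 FPKM (log2 ratio 1.44), PRR7 from 9.22 to 12.7 FPKM (0.42) and PRR5 from 6.54 to 8.07 FPKM (0.27). ELF4, of the evening complex, was the lowest, from 43.35 to 34.88 FPKM (−0.31). The dawn genes LHY (49.32 to 49.44 FPKM, 0.003) and CCA1 (38.54 to 43.09 FPKM, 0.16) differed less. The seedlings grew in continuous light and the sources used here give no hour of harvest. The part of these clock genes in the values of BBX1, BBX2 and BBX3 was not tested.

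Genes that control the CO and COL proteins after translation showed no member past 1.2-fold, against 9.24% of all loci tested. A list of 12 is too short to tell this from that share. Of the 12, 6 lay on each side of 0, with a median of −0.01. Beyond the counting interval 4 were higher and 3 lower, against 24.1% and 12.8% of all loci with an annotated length. COP1 was at 0.13 (17.29 to 19.02 FPKM), the red-light receptor gene PHYB at 0.17 (21.42 to 24.21 FPKM) and HY5, a promoter of light-dependent development, at 0.09 (33.15 to 35.44 FPKM). SPA4, a partner of COP1, was the highest at 0.18 and the blue-light receptor gene CRY1 the lowest at −0.18. After rescaling to a median ratio of 1, which lowers log2 ratios by up to 0.04, these small values shift together.

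Partner proteins likewise had log2 ratios near 0. None of 11 was past 1.2-fold, against 9.24% of all loci tested, and the median was 0.05. A list of 11 is too short to tell this from that share. Beyond the counting interval 4 were higher and 0 lower, against 24.1% and 12.8% of all loci with an annotated length. The NF-Y subunit genes ran from −0.07 (NF-YC9) to 0.17 (NF-YC3). PIF3, a bHLH factor degraded on phytochrome activation, was at 0.13 (6.83 to 7.59 FPKM).

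Flowering genes, among them the CO target FT, were mostly near the detection limit in these young seedlings. FT was listed at 0.05 FPKM in WT and 0.19 FPKM in the column labelled bbx4-1, which corresponds to about 2.3 and 9.2 fragments and a ratio whose exact interval ran from 0.86 to 28.9. TSF, the closest relative of FT, went the opposite way, at 0.20 and 0.05 FPKM (exact interval of the ratio 0.026 to 1.25). LFY, a floral meristem identity gene, was listed at 0.05 and 0.25 FPKM, a ratio of 5.0 with an exact interval of 1.51 to 24.1, from about 3.3 fragments in WT. On the log2(FPKM + 1) scale, FT and LFY were both above 0 beyond the approximate interval (FT 0.18, interval 0.0079 to 0.35, and LFY 0.25, interval 0.096 to 0.41), so that for FT the approximate and exact intervals differ. AP1 was listed at 0 in both columns. Of 10 flowering genes, which include the repressors FLC and SVP of other flowering pathways, 4 had a mean FPKM of at least 1. None of these was past 1.2-fold, against 9.24% of all loci tested. A list of 4 is too short to tell this from that share. SOC1, a floral integrator, was at 5.0 and 5.19 FPKM (log2 ratio 0.04), and FLC, the lowest of the 4, at 6.27 and 6.45 FPKM (0.04). TFL1 was the highest at 0.19 (0.90 to 1.17 FPKM). Its plain FPKM ratio was 1.3 (exact interval 0.84 to 2.04), and it lay inside 1.2-fold because of the pseudocount. Neither SOC1 nor FLC differed beyond the counting interval, while FT and LFY rest on few fragments. The part of the higher BBX4 value in these values was not tested.

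**Figure D5:**
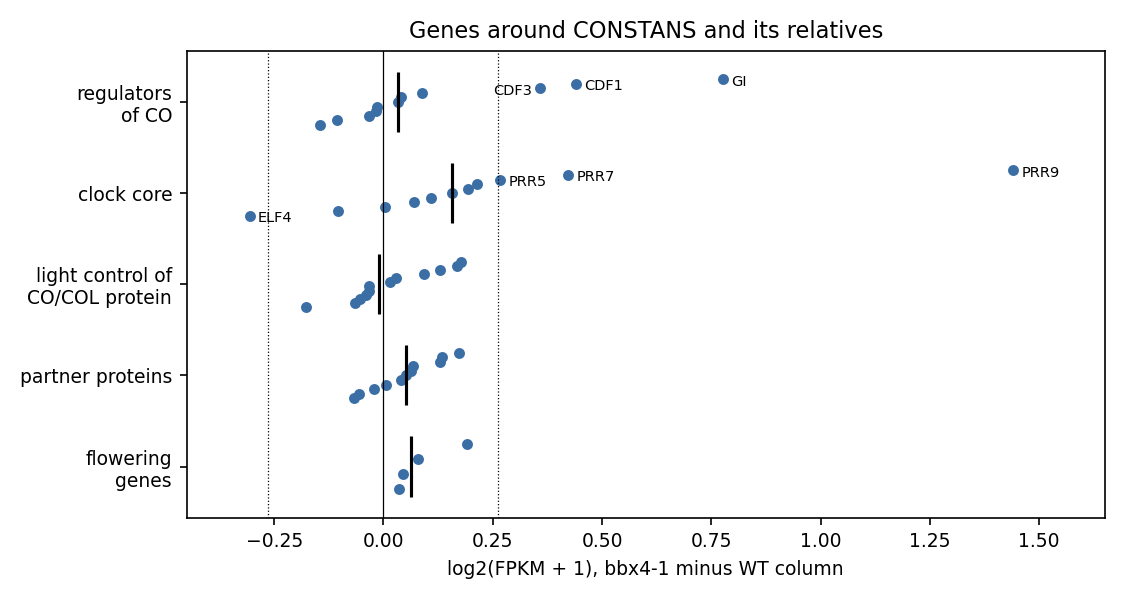
log2 ratio of genes around CO and its relatives with a mean FPKM of at least 1, in 5 lists, 1 point per gene, with the list median as a vertical bar and dotted lines at 1.2-fold. Named points are past 1.2-fold: CDF1, CDF3 and GI among regulators of CO, and PRR5, PRR7, PRR9 and ELF4 among clock genes.

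The tables carried the transcripts of whole seedlings that the label names. RBCS1A, the small Rubisco subunit of green tissue, stood at 17575 FPKM in WT and 17123 FPKM in the column labelled bbx4-1. LHCB1.1, a light-harvesting protein of the same tissue, was at 0.09. The 5 root markers lay between 2.04 and 17.55 FPKM, with WER the lowest ratio (3.02 to 2.04 FPKM, −0.40) and SCR the highest (0.21). All 3 seed storage markers were low and lower in the column labelled bbx4-1: OLEO1 went from 2.21 to 1.82 FPKM (−0.19, within the counting interval), CRU3 from 0.84 to 0.52 FPKM (−0.28) and SESA1 from 0.20 FPKM to a listed 0 (−0.26), the last pair beyond it. SESA1 rests on about 6.8 fragments in WT and 0 in the other column, and its log2 interval gives the 0 no counting error. The exact interval of its ratio ran from 0 to 0.70. Both pollen markers were at most 0.03 FPKM. STM, of the shoot meristem, had the highest log2 ratio of the shoot markers, 0.12 (1.24 to 1.43 FPKM). The part of the lower WER and seed storage values in those of the members was not tested.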

How the data were processed

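Poly(A)-enriched cDNA libraries were made from total seedling RNA, per the labels' protocols. The authors deposited 1 table of FPKM per genotype, combined over 3 replicates. Per the submitters' processing notes, HISAT2 2.1.0, edgeR 3.0.8 and TAIR10 were used; the sources used here do not give their roles, the counter, strand use or filters. Sample descriptions name the table of each genotype.

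Loci averaging 1 FPKM or more over both columns were kept and compared as log2(FPKM + 1). No test was run, since there is a single combined column per genotype. Of 33602 loci, 32835 matched a locus tag of RefSeq TAIR10.1, which supplied lengths, coordinates and sequence. Depth is not stated. Transfer RNA genes of at most 75 bp with a single fragment gave an approximate constant (median FPKM × length of 20.8 over 20 genes in WT and 20.07 over 18 in bbx4-1, about 48.1 and 49.8 M fragments), from which fragments per gene, counting intervals and exact Clopper-Pearson intervals of ratios were computed. PCR copies could not be told apart, so the intervals cover counting error only. The interval calculation was run on simulated fragments with counting error alone and exon lengths taken as known. That run checks the arithmetic only and does not bear on lengths, PCR copies or variation between seedlings.

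The members and the 14 gene lists (101 entries, of which 99 matched the annotation by name; the other 2 were left out) were chosen with earlier results of these data known. All members are named, and of each other list, among genes averaging 1 FPKM or more, those with the highest and the lowest log2 ratio and those past 1.2-fold, and FT, SOC1, FLC, PHYB, PIF3, COP1 and HY5. FKF1, LHY, CCA1, PRR3, TSF, AP1, LFY, SVP, LHCB1.1, CRU3, SESA1, BBX19 and the low BBX genes were named after their values were seen. Coding sequences were aligned with Biopython 1.88, and calculations used Python 3.11.15 with scipy 1.17.1. Alternatives were other pseudocounts, filters, scalings, lengths and constants.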

Additional observations from a re-analysis of the deposited data

How the results depend on the processing

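Of 63 recomputed values, 49 stayed within their counting interval or within 1.5 times the count as reported, and 14 moved. A change of direction could be seen only in the log2 ratios of the members, since counts have no sign. No member's log2 ratio changed sign. BBX1, BBX2, BBX3, BBX5 and BBX6 stayed below 0 under both other pseudocounts and both other scalings, with BBX3 between −0.30 and −0.24 and BBX1 between −0.26 and −0.11. BBX4 was at 3.55 with a pseudocount of 5 and at 3.57 after rescaling to a median ratio of 1. Members past 1.2-fold numbered 2 in place of 1 under either scaling, by the addition of BBX3, and members beyond the counting interval 4 in place of 5 with coding lengths, by the loss of BBX1.

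Over all loci, counts depended more on the settings. With a pseudocount of 0.1, 42 loci were past 2-fold upwards and 24 downwards, and 1177 were past 1.2-fold downwards. With a pseudocount of 5, the counts were 5 upwards and 4 downwards past 2-fold, and 376 and 325 past 1.2-fold. With a mean FPKM of at least 5, they were 12 upwards past 2-fold, and 561 upwards and 443 downwards past 1.2-fold, where fewer loci were tested. Under rescaling to a median ratio of 1, 719 loci were past 1.2-fold upwards and 1025 downwards, against 973 and 776 as reported. No paired analysis was possible because each table holds 1 combined column, for which leaving out a replicate was also not run. Depth limits BBX1, at about 513 fragments in WT, and FT, at about 2.3.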
